A study of Drosophila melanogaster with 14 samples.

Results

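Hemocyte and basement membrane genes of the fly head were followed here through 9 genes, vkg, Col4a1, Pxn, PPO1, PPO2, Hml, srp, NimC1 and eater. They were chosen by name: every probe set that the platform's gene table pairs with exactly 1 of these symbols was taken. This gave 10 probe sets out of 13966 that were not array controls. PPO2 had 2 of them, 141850_at and 142220_at, and each other gene had 1.

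Hemocytes are the blood cells of insects. Most are plasmatocytes, which engulf microbes and dead cells, and a minority are crystal cells, which store prophenoloxidases, the zymogens that start melanin formation at wounds. Plasmatocytes and fat body also secrete collagen IV and its partners, which form the basement membrane, the thin sheet of matrix that lines tissues bathed in hemolymph.

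RNA was measured on 14 single-colour Affymetrix arrays of Drosophila melanogaster in 3 groups. The IP group (n = 4) held RNA recovered with anti-FLAG beads from about 200 fly heads, fixed for 30 min in 1% formaldehyde and sonicated, in which Rh1-GAL4 drove a FLAG-tagged poly(A)-binding protein, PABP. This driver is active in the outer photoreceptors R1-R6, so the IP is meant to hold messages of these cells. Rh1 heads (n = 4) were whole heads of flies that carry the same driver with the tagged protein, and CS heads (n = 6) were whole heads of the wild-type strain Canton-S, with neither transgene. About 100 frozen heads were extracted with Trizol for each whole-head sample. The labels name the transgene both as UAS-dPABP-FLAG and as UAS-hPABP-FLAG, and which is right is not settled here. The sources used here give neither age nor sex of the flies. Whether samples of a group were separate cohorts of flies is not in the labels, and the spread behind each p-value may be technical only. IP and whole heads differ in fixation and recovery as well as in the cells sampled, and these cannot be told apart.

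Arrays of the IP group were less alike than those of whole heads. Over all probe sets that were not array controls, before any filter, pairs of IP arrays correlated at 0.909 to 0.985. Pairs of Rh1 heads correlated at 0.99 to 0.996 and pairs of CS heads at 0.988 to 0.996 (Pearson's r across probe sets, which are not independent). The ratio of the 5′ to the 3′ control probe set of eIF-4a, a sign of RNA or target length, was 0.0284 and 0.0432 on IP arrays 2 and 4, against 0.531 and 0.209 on IP arrays 1 and 3 and 0.444 to 0.678 on all whole-head arrays. The same ratio of GAPDH was 0.0093 to 0.202 on the IP arrays, against 0.291 to 0.541 on whole-head arrays. For ACTIN it was 0.0167 to 0.135 on the IP arrays, against 0.317 to 0.513. By GAPDH and by ACTIN every IP array, including arrays 1 and 3, was below every whole-head array. By eIF-4a IP array 1 lay within the range of whole heads. Counts of called genes and fold changes of the 6 tested genes in the IP were also computed without IP arrays 2 and 4. Leaving these out does not remove the difference in GAPDH and ACTIN ratios. As a check of the tissue, 7 of 8 outer photoreceptor genes rose in the IP against Rh1 heads and the other one did not pass the test, in the limma fit described next. Against CS heads 3 of the 8 rose, 3 fell and 2 did not pass the test, and all 8 fell in Rh1 heads against CS heads. Of all probe sets in that fit 21.8% rose in the IP against Rh1 heads. Against CS heads 26.5% rose and 34.6% fell in the IP, and 29.8% fell in Rh1 heads.

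Signals are deposited intensities scaled to a common trimmed mean, and fold changes are differences of log2(signal + 32), which understate the change of low signals. A gene was called when its adjusted p in limma was under 0.05, over 9776 probe sets whose mean passed a filter at the 30th percentile. Of the 9 genes, 6 passed this filter, and srp, NimC1 and eater fell below it. For PPO2 the probe set 141850_at, brighter on average over all arrays, stands for the gene in counts.

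In the IP against Rh1 heads, 4 of the 6 tested genes fell (vkg, Col4a1, Pxn and Hml), PPO2 rose by the probe set 141850_at, and PPO1 did not pass the test. Among all tested probe sets 25.7% fell and 21.8% rose in this comparison, so calls in either direction were common. A fall of at least 2-fold, which vkg, Col4a1 and Hml showed, was called for 9.03% of all tested probe sets. The median log2 fold change of the 6 genes was -0.80, beside 0.01 over all tested probe sets. The groups' arrays did not overlap for 5 of the 6 tested genes, against 46.7% of all tested probe sets. With IP arrays 2 and 4 left out, the same 4 genes fell, PPO2 again rose and PPO1 again did not pass the test. The log2 fold changes were then -2.36 for Col4a1, -2.01 for vkg, -1.22 for Hml, -0.69 for Pxn and -0.07 for PPO1. For PPO2 they were 0.90 by 141850_at and -1.66 by 142220_at. In that setting srp also reached the filter, with a log2 fold change of -1.24. It did so because fewer IP arrays, where its signal was low, entered the mean, so it is not counted here.

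**Figure D1:**
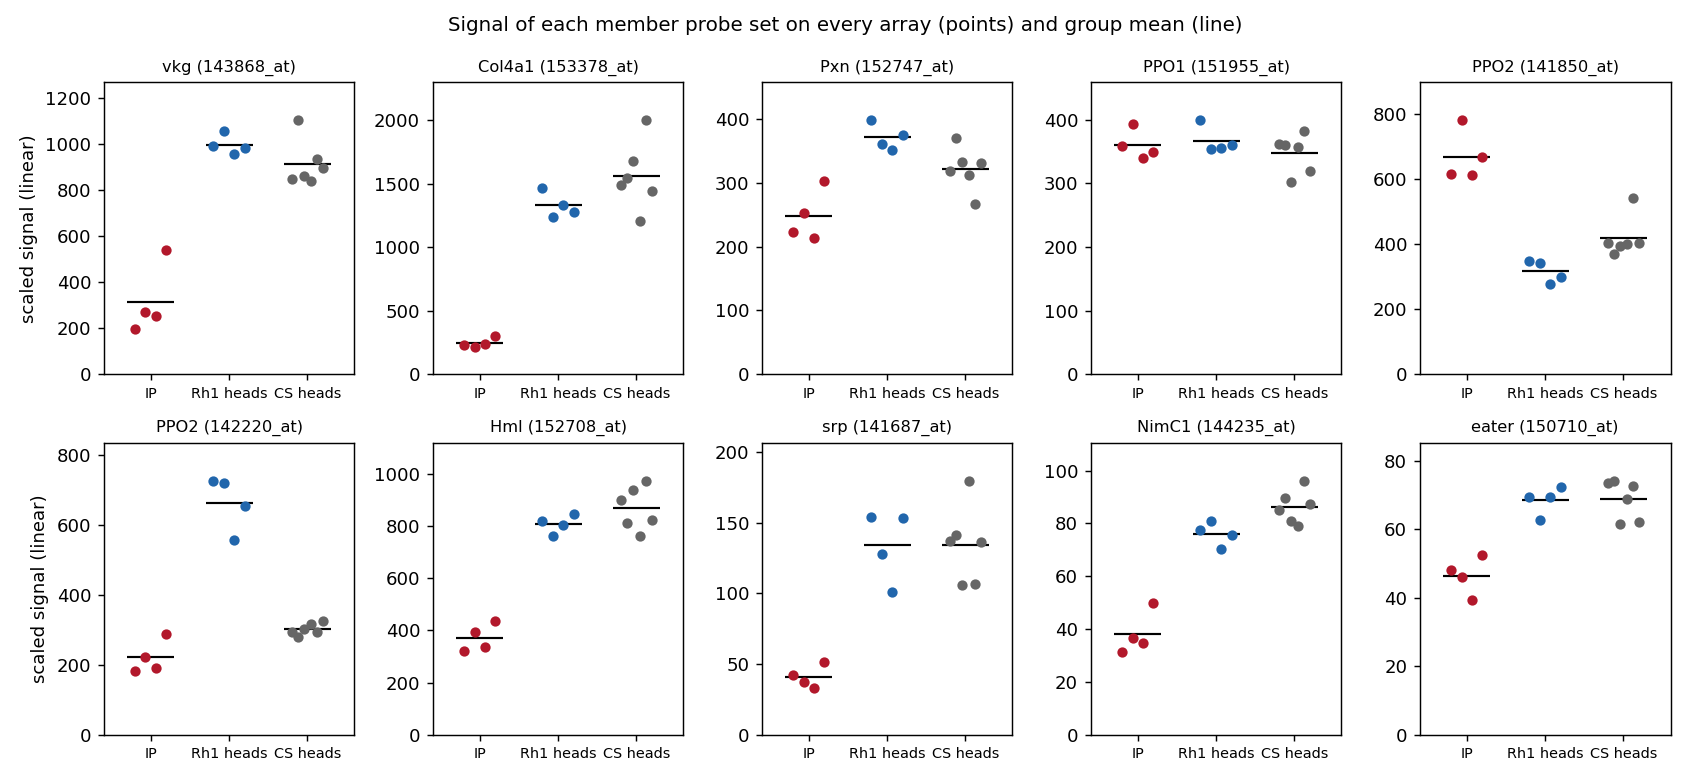
Scaled signal (linear axis from 0) of each of the 10 probe sets on every array, with IP, Rh1 heads and CS heads from left to right. Points are arrays and lines are group means. In 8 of the 9 genes, all except PPO1, no IP array lay within the range of Rh1 heads, and the 2 probe sets of PPO2 lay on opposite sides. Arrays of these groups did not overlap for 46.7% of all tested probe sets, which do not include those of srp, NimC1 and eater.

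Col4a1 and vkg encode the alpha1 and alpha2 chains of collagen IV, which are built into 1 trimer, and lie next to each other on chromosome arm 2L in the RefSeq annotation of Release 6. Col4a1 had signals of 233.1, 217, 234.4 and 298.1 on IP arrays 1 to 4, against 1471, 1236, 1331 and 1279 in Rh1 heads 1 to 4. In CS heads 1 to 6 it had 1488, 1548, 1676, 1203, 2000 and 1441. Every IP array was far below every whole-head array, while the 2 kinds of whole heads overlapped. Col4a1 averaged 245.7 ± 35.9 in the IP and 1329 ± 102 in Rh1 heads (SD, n = 4 each), a log2 fold change of -2.30 (SE 0.11, limma adjusted p = 5.55e-07). Only 136 of the 9776 tested probe sets, 1.39%, had a lower fold change in this comparison.

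The other collagen IV chain, vkg, had signals of 197, 270, 253.2 and 539.4 on the IP arrays, against 989.2, 1055, 956.1 and 983.9 in Rh1 heads. In CS heads the 6 arrays gave 847.2, 1102, 860.5, 837.3, 933.8 and 896. The IP arrays were again all below the whole heads, and IP array 4 stood well above the other 3. The mean was 314.9 ± 153 in the IP and 996.1 ± 42 in Rh1 heads, and the coefficient of variation was 48.6% in the IP and 4.22% in Rh1 heads. The log2 fold change was -1.66 (SE 0.24, 95% interval -2.20 to -1.11, limma adjusted p = 0.000388), and -1.93 without IP array 4. In 344 probe sets, 3.52% of those tested, it was lower.

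The 2 chains did not fall equally. The log2 difference Col4a1 minus vkg, taken within each array, averaged -0.24 ± 0.42 in the IP, 0.40 ± 0.14 in Rh1 heads and 0.74 ± 0.24 in CS heads. Only changes of this difference between groups can be read, since levels of different probe sets cannot be compared. It was lower by 0.64 in the IP than in Rh1 heads (exact permutation test over arrays, two-sided, p = 0.0286, the smallest that 4 against 4 arrays allow, and 0.0343 after adjustment over 6 such tests). It was lower by 0.98 in the IP than in CS heads (exact permutation p = 0.00476, adjusted 0.00952), and by 0.34 in Rh1 heads than in CS heads (exact permutation p = 0.0429, adjusted 0.0429). Without IP arrays 2 and 4 the first difference was -0.35 and the second -0.69, with adjusted permutation p of 0.0667 and 0.0643. The first call was lost without any 1 of Rh1 heads 1 to 4 (adjusted permutation p of 0.0571 to 0.0686). The call between the 2 kinds of heads was lost without any 1 of CS heads 1, 3, 5 and 6 or Rh1 heads 2, 3 and 4 (adjusted permutation p of 0.0595 to 0.107).

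Pxn encodes peroxidasin, a secreted peroxidase that crosslinks collagen IV and that plasmatocytes make. Its signal was 223, 253.2, 213.2 and 303.2 on the IP arrays, against 397.9, 361.6, 350.8 and 375.3 in Rh1 heads. In CS heads it was 319.2, 370.3, 333.2, 312.6, 267.1 and 331.6. IP arrays were all below Rh1 heads, but IP array 4 lay above CS heads 5. Pxn averaged 248.2 ± 40.5 in the IP and 371.4 ± 20.3 in Rh1 heads and fell by 0.54 on the log2 scale (SE 0.11, limma adjusted p = 0.00337). This was a smaller fall than those of the collagen chains, and 18.9% of tested probe sets had a lower fold change.

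Hml encodes hemolectin, a large clotting protein of plasmatocytes whose promoter is widely used to mark these cells in larvae. The IP arrays had signals of 323.1, 393.8, 336.9 and 436.8, against 820.7, 763.1, 804 and 847.3 in Rh1 heads. CS heads had 899.3, 810.1, 939.3, 762, 972.3 and 824.8. All IP arrays lay below all whole heads, and the 2 kinds of whole heads overlapped. Hml averaged 372.7 ± 52.6 in the IP and 808.7 ± 35.3 in Rh1 heads and fell by 1.06 (SE 0.11, limma adjusted p = 4.25e-05).

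The prophenoloxidase genes went other ways. PPO1, a zymogen of crystal cells, had 358.6, 393, 339.1 and 349.3 in the IP, against 398.9, 354.1, 355.9 and 359.8 in Rh1 heads. Its 6 CS arrays ran from 302.3 to 381.7 with a mean of 347.1 ± 29.8. All 3 groups overlapped, and PPO1 was the one tested gene called in no comparison. Its log2 fold change in the IP against Rh1 heads was -0.03, with a 95% interval of -0.22 to 0.17 (limma adjusted p = 0.822). The interval holds no change of more than 0.22 in either direction.

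PPO2, the second zymogen of crystal cells, had 2 probe sets that moved in opposite directions. The probe set 141850_at had signals of 614.6, 780.9, 612.6 and 669.2 in the IP, against 348.5, 342.3, 276.5 and 298.9 in Rh1 heads. In CS heads it had 404.9, 368.5, 394.4, 399.5, 542.2 and 404.8. IP was highest and Rh1 heads lowest, with no overlap between any groups. By this probe set PPO2 rose in the IP against Rh1 heads by 1.01 (SE 0.11, limma adjusted p = 7.59e-05), and 6.99% of tested probe sets had a higher fold change.

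The probe set 142220_at of PPO2 had signals of 183.8, 222.2, 190.5 and 288.3 in the IP, against 725.3, 719.2, 556.9 and 654.1 in Rh1 heads. In CS heads it had 294.8, 279.9, 302.7, 317, 295.2 and 326.3. Here Rh1 heads were highest, apart from all other arrays, and IP array 4 overlapped CS heads. It fell in the IP against Rh1 heads by 1.47 (SE 0.14, limma adjusted p = 3.12e-05). With this probe set in place of the other, or with the mean of both, 0 of the 6 genes rose in the IP against Rh1 heads.

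The disagreement was tested within arrays. The log2 value of 141850_at minus that of 142220_at averaged 1.48 ± 0.24 in the IP (range 1.13 to 1.68), -1.0 ± 0.05 in Rh1 heads (-1.05 to -0.93) and 0.42 ± 0.20 in CS heads (0.29 to 0.81). The change of this difference was 2.48 in the IP against Rh1 heads (exact permutation p = 0.0286, adjusted 0.0343) and -1.42 in Rh1 heads against CS heads (exact permutation p = 0.00476, adjusted 0.00952). It was 1.06 in the IP against CS heads (exact permutation p = 0.00476, adjusted 0.00952). Every group was apart from every other. The direction in which PPO2 differed between any 2 groups therefore depended on the probe set read. Which part of the PPO2 message each probe set matches was not analysed here, and no sequence of either is given.

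**Figure D2:**
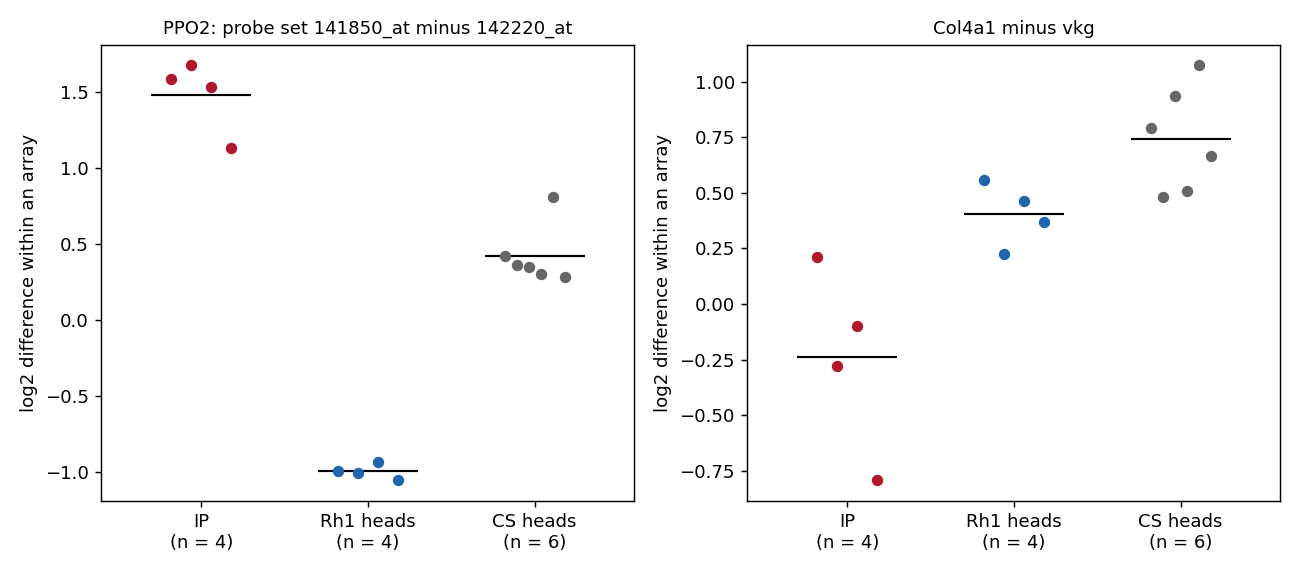
Differences of log2(signal + 32) within each array, for the 2 probe sets of PPO2 (left) and for Col4a1 minus vkg (right), with IP, Rh1 heads and CS heads from left to right. Points are arrays and lines are group means. The PPO2 difference stood at 1.48 in the IP, -1.0 in Rh1 heads and 0.42 in CS heads with no overlap. The means of Col4a1 minus vkg were -0.24 in the IP, 0.40 in Rh1 heads and 0.74 in CS heads, and the vertical position of a panel carries no meaning beyond these changes.

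The 3 genes below the filter had low signals in all groups, and whether they were detected on an array is not given in the table used. The GATA transcription factor gene srp, needed to form blood cells, had signals of 42.49, 37.46, 33.14 and 51.78 in the IP, against 154.2, 127.7, 101.1 and 153.4 in Rh1 heads. CS heads ran from 106 to 179.4 for this gene, with a mean of 134.4 ± 27.1. The IP arrays were below all whole heads, which overlapped each other. The difference of the log2 means was -1.17 in the IP against Rh1 heads, and in a fit of all 13966 probe sets without the filter the limma adjusted p was 5.93e-05.

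NimC1 and eater encode receptors with which plasmatocytes bind bacteria. NimC1 had 31.22, 36.7, 34.75 and 49.92 in the IP, against 77.53, 80.86, 70.47 and 75.57 in Rh1 heads and 78.94 to 95.98 in CS heads. Signals of eater were 48.03, 46.1, 39.26 and 52.57 in the IP, against 69.4, 62.61, 69.53 and 72.36 in Rh1 heads and 61.59 to 74.04 in CS heads. The IP arrays of both genes were below all whole heads. Against Rh1 heads the log2 difference was -0.63 for NimC1 and -0.36 for eater, with limma adjusted p of 0.000353 and 0.00382 in the fit without the filter. In that fit 7 of the 9 genes fell in the IP, and 20.9% of all probe sets did. The same 7 genes fell in the IP against CS heads in that fit, beside 28.2% of all probe sets.

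**Figure D3:**
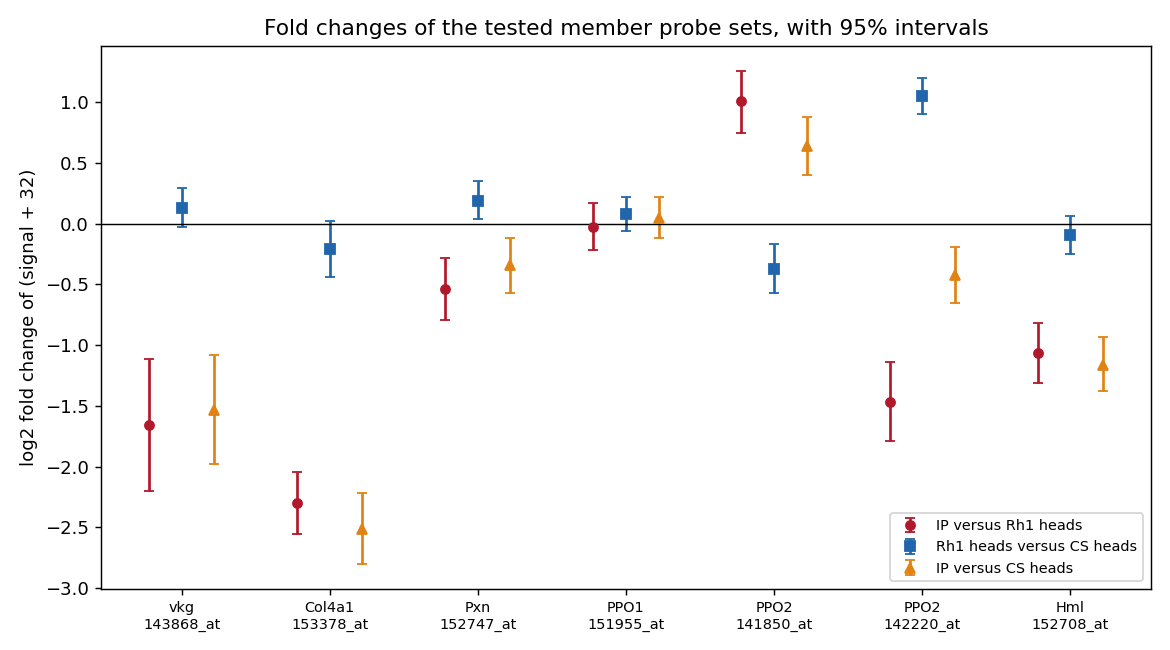
Log2 fold change of (signal + 32) with 95% intervals from limma for the 7 tested probe sets, in the IP against Rh1 heads (circles), Rh1 heads against CS heads (squares) and the IP against CS heads (triangles). The comparisons share arrays. The IP stands at -2.30 for Col4a1 and -1.66 for vkg against Rh1 heads, PPO1 lies near 0 in each comparison, and the probe sets of PPO2 lie on opposite sides of 0.

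Rh1 heads against CS heads compare whole heads of flies with the driver and tagged protein and whole heads of wild-type flies. Of the 6 tested genes, Pxn rose, PPO2 fell by 141850_at, and vkg, Col4a1, PPO1 and Hml did not pass the test. Over all tested probe sets 24.3% rose and 29.8% fell here, a larger share together than among these genes. The groups' arrays did not overlap for 1 of the 6, PPO2, against 38.8% of all tested probe sets.

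Pxn rose by 0.19 in Rh1 heads against CS heads (SE 0.07, limma adjusted p = 0.036), with overlapping arrays. This call was lost in 8 of 23 alternatives, among them without Rh1 heads 1, 2 or 4 and without CS heads 1, 4 or 5, with adjusted p of up to 0.135. PPO2 fell by 0.37 by the probe set 141850_at (SE 0.09, limma adjusted p = 0.00427), and rose by 1.05 by 142220_at (SE 0.07, limma adjusted p = 8.22e-08). Only 0.614% of tested probe sets had a higher fold change than the second of these values.

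The collagen IV chains did not pass the test between the 2 kinds of whole heads. The log2 fold change in Rh1 heads against CS heads was 0.13 for vkg (95% interval -0.03 to 0.29, limma adjusted p = 0.167) and -0.21 for Col4a1 (-0.44 to 0.02, adjusted p = 0.113). It was -0.09 for Hml (-0.25 to 0.06, adjusted p = 0.285) and 0.08 for PPO1 (-0.06 to 0.22, adjusted p = 0.34). Leaving out CS heads 2 brought vkg past the threshold (0.18, adjusted p = 0.0222), and leaving out CS heads 4 did so for Col4a1 (-0.28, adjusted p = 0.0205). Means of srp were 134.1 ± 25.2 in Rh1 heads and 134.4 ± 27.1 in CS heads, and those of eater were 68.47 ± 4.14 in Rh1 heads and 68.78 ± 5.69 in CS heads. NimC1 averaged 76.11 ± 4.35 in Rh1 heads and 86.26 ± 6.19 in CS heads, with overlapping arrays.

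**Figure D4:**
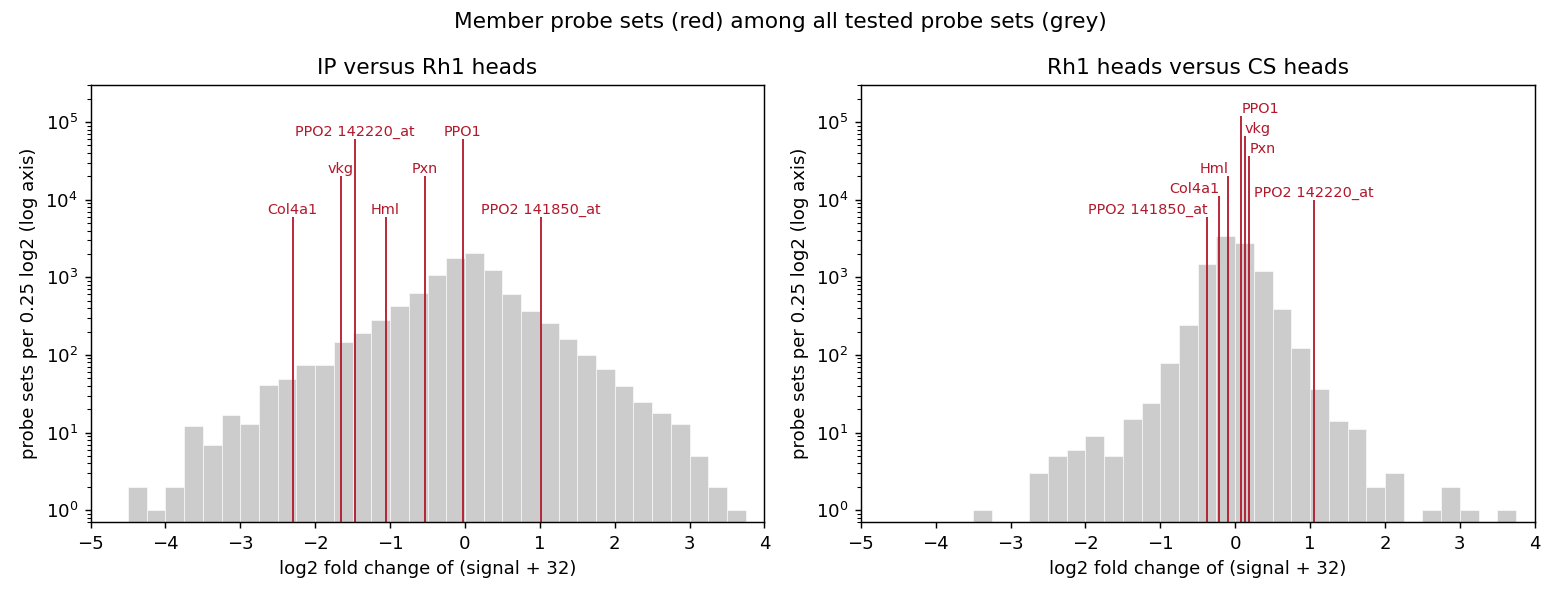
Number of tested probe sets (log axis) by log2 fold change of (signal + 32), in bins of 0.25, with the 7 tested probe sets of the named genes as red lines whose height carries no meaning. In the IP against Rh1 heads (left) Col4a1 lies in the lower tail with 1.39% of probe sets beyond it, and in Rh1 heads against CS heads (right) the line apart from the rest is PPO2 142220_at at 1.05.

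Set against CS heads in place of Rh1 heads, the IP gave the same counts, 4 genes lower, 1 higher and 1 not called, where 34.6% of all tested probe sets fell and 26.5% rose. The groups' arrays did not overlap for 4 of the 6, against 48.8% of all tested probe sets. This comparison shares its arrays with the other 2 and adds no separate evidence. Col4a1 had a log2 fold change of -2.51 (SE 0.13, limma adjusted p = 2.53e-08), vkg -1.53 (SE 0.21, adjusted p = 5.3e-05) and Hml -1.16 (SE 0.10, adjusted p = 1.61e-06). Pxn fell by 0.34 with overlapping arrays (SE 0.10, limma adjusted p = 0.013), with -0.54 under array weights. PPO2 rose by 0.64 by 141850_at (SE 0.11, limma adjusted p = 0.000332) and fell by 0.42 by 142220_at (SE 0.10, adjusted p = 0.00449). Over the 3 groups, the IP was thus lowest for vkg, Col4a1, Pxn and Hml. The next groups in order were Rh1 heads and CS heads for Col4a1 and Hml, and CS heads and Rh1 heads for vkg, none of which were called different from each other. For Pxn CS heads came next and Rh1 heads last, with the call given above.

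On the IP arrays, IP array 4 held the highest value of its group for 8 of the 10 probe sets, all except PPO1 and PPO2 141850_at. It did so for 48.7% of all tested probe sets. This array also had the lowest trimmed mean before scaling and a low 5′ to 3′ ratio, as given above. The part of these in the values of IP array 4 was not tested.

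The genes whose log2 values most resembled each member over the 14 arrays were found among 7816 genes, by Pearson's r, as a description. All arrays share the 3 groups, so the differences between groups weigh heavily in these values. For Col4a1 they were Mlc1, a myosin light chain of muscle (0.993), Gad1, which makes GABA (0.991), and Oatp30B, an organic anion transporter (0.991). After each group's mean was removed, these fell to 0.841, 0.713 and 0.549. For vkg the closest was Scp2, a calcium-binding protein (0.985, and 0.917 within groups). Hml was closest to alpha-Est9, an esterase gene (0.99), FASN1, a fatty acid synthase of the fat body (0.988), and Col4a1 itself (0.987). Within groups these fell to 0.847, 0.747 and 0.721. No gene came closer to PPO1 than tnc, at 0.716.

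Of 11 other genes of basement membrane structure, 8 passed the filter. In the IP against Rh1 heads 6 of these fell, 0 rose and 2 did not pass the test, with a median log2 fold change of -0.78. Over all tested probe sets 25.7% fell and 21.8% rose in this comparison. SPARC, a collagen-binding protein that hemocytes and fat body secrete, had signals of 591.4, 438.4, 541.3 and 387 in the IP, against 4058, 4368, 3612 and 3648 in Rh1 heads, and fell by 2.94 (SE 0.15, limma adjusted p = 5.65e-07). Ppn, which encodes papilin, fell by 2.61 (SE 0.09, adjusted p = 9.14e-08) by its brighter probe set, while the other, below the filter, had a log2 difference of -0.08. In Rh1 heads against CS heads 5 of the 8 genes fell and 3 rose, beside 29.8% and 24.3% of all tested probe sets. By the probe sets that stand for the genes, those with the largest changes were trol, the perlecan gene, which fell by 0.62 (SE 0.07, adjusted p = 1.24e-05), and Ndg, the nidogen gene, which fell by 0.51 (SE 0.08, adjusted p = 0.000196). The other probe set of trol rose by 0.18 there (adjusted p = 0.0259). Another probe set of Mp, a multiplexin collagen, rose by 1.28 there (adjusted p = 7.65e-07), beside 0.47 for the one that stands for the gene (adjusted p = 3.03e-05). The laminin genes LanA, LanB1 and wb were below the filter.

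Genes that process, secrete or turn over collagen did not fall together. Of 5 measured, 2 rose, 2 fell and 1 did not pass the test in the IP against Rh1 heads. Over all tested probe sets 21.8% rose and 25.7% fell there. Timp, an inhibitor of matrix metalloproteases, had 1426, 1414, 1797 and 1394 in the IP, against 592.1, 661.6, 540.5 and 553.2 in Rh1 heads. It rose by 1.31 (SE 0.12, limma adjusted p = 1.89e-05), and Tango1, needed to export collagen from the endoplasmic reticulum, rose by 0.83 (SE 0.09, adjusted p = 5.23e-05). Mmp2, a matrix metalloprotease, fell by 0.80 (SE 0.08, adjusted p = 4.63e-05). PH4alphaEFB, the prolyl hydroxylase of collagen, fell by 0.63 (SE 0.12, adjusted p = 0.00196), but its other probe set had a fold change of 0.05 (adjusted p = 0.899). In Rh1 heads against CS heads 1 of the 5, Mmp2, rose by 0.24 (adjusted p = 0.0028). Of 4 tested matrix receptors, only the integrin gene mys was called in the IP against Rh1 heads (-0.45, limma adjusted p = 0.0479), a call that was lost in 12 of 20 alternatives. In Rh1 heads against CS heads 3 of the 4 rose, beside 24.3% of all tested probe sets. Among them were if, an integrin alpha chain, at 0.39 (adjusted p = 0.00269) and Dg, dystroglycan, at 0.33 (adjusted p = 0.00074). But in 1 fit of all arrays 0 of the 4 rose (adjusted p = 0.149 for if and 0.0826 for Dg).

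Other phagocytic and nimrod genes were mixed as well. Of 10 tested, 5 fell, 1 rose and 4 did not pass the test in the IP against Rh1 heads. Over all tested probe sets 25.7% fell and 21.8% rose there. NimC4, a receptor for dying cells, fell by 1.32 (SE 0.09, limma adjusted p = 4.62e-06) and crq, a scavenger receptor, rose by 0.98 (SE 0.28, adjusted p = 0.0168). The call of crq was lost without Rh1 heads 1 (0.90, adjusted p = 0.0509), so that 0 genes of the list rose, while 2 rose without IP array 2, without IP arrays 2 and 4, or with array weights. In Rh1 heads against CS heads 5 rose and 4 fell, beside 24.3% and 29.8% of all tested probe sets. Of these genes, crq rose by 0.49 (adjusted p = 0.00193) and NimC4 fell by 0.72 (adjusted p = 1.83e-05). Another of the 5 that rose, drpr, did so by 0.28 by the probe set that stands for it (limma adjusted p = 0.00128). Its other probe set fell by 0.51 (adjusted p = 4.5e-05). In 1 fit of all arrays 1 of the 10 rose, and crq was not called (adjusted p = 0.102). Of 3 tested regulators of blood cells, gcm2 fell by 0.30 in the IP against Rh1 heads (adjusted p = 0.0368, lost in 5 of 19 alternatives, and -0.51 under array weights) and ush fell by 0.36 in Rh1 heads against CS heads (adjusted p = 0.00151, but 0.0684 in 1 fit of all arrays). One regulator below the filter, lz, was picked out after its values were seen. It encodes a Runx factor that crystal cells need and that also acts in eye development. Its signals were 301.4, 164.5, 328.3 and 664.2 in the IP, against 67.66, 63.31, 56.22 and 81.11 in Rh1 heads and 27.31 to 56.66 in CS heads, with every IP array above every whole-head array.

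Of 8 tested genes of melanization and clotting, 4 fell, 1 rose and 3 did not pass the test in the IP against Rh1 heads. Among all tested probe sets 25.7% fell and 21.8% rose there. The clot gene fon fell by 2.97 (SE 0.19, limma adjusted p = 2.43e-06) and Spn27A, a serpin that limits melanization, fell by 1.35 (SE 0.35, adjusted p = 0.0105), with -0.71 when IP arrays 2 and 4 were left out. PPO3, the third prophenoloxidase gene, had a log2 fold change of -0.24 (adjusted p = 0.1). In Rh1 heads against CS heads 4 of the 8 fell, among them fon by 0.82 (adjusted p = 7.84e-05), and Sp7, a protease that activates prophenoloxidase, rose by 0.62 (adjusted p = 2.2e-05). Among all tested probe sets 29.8% fell and 24.3% rose between these heads.

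**Figure D5:**
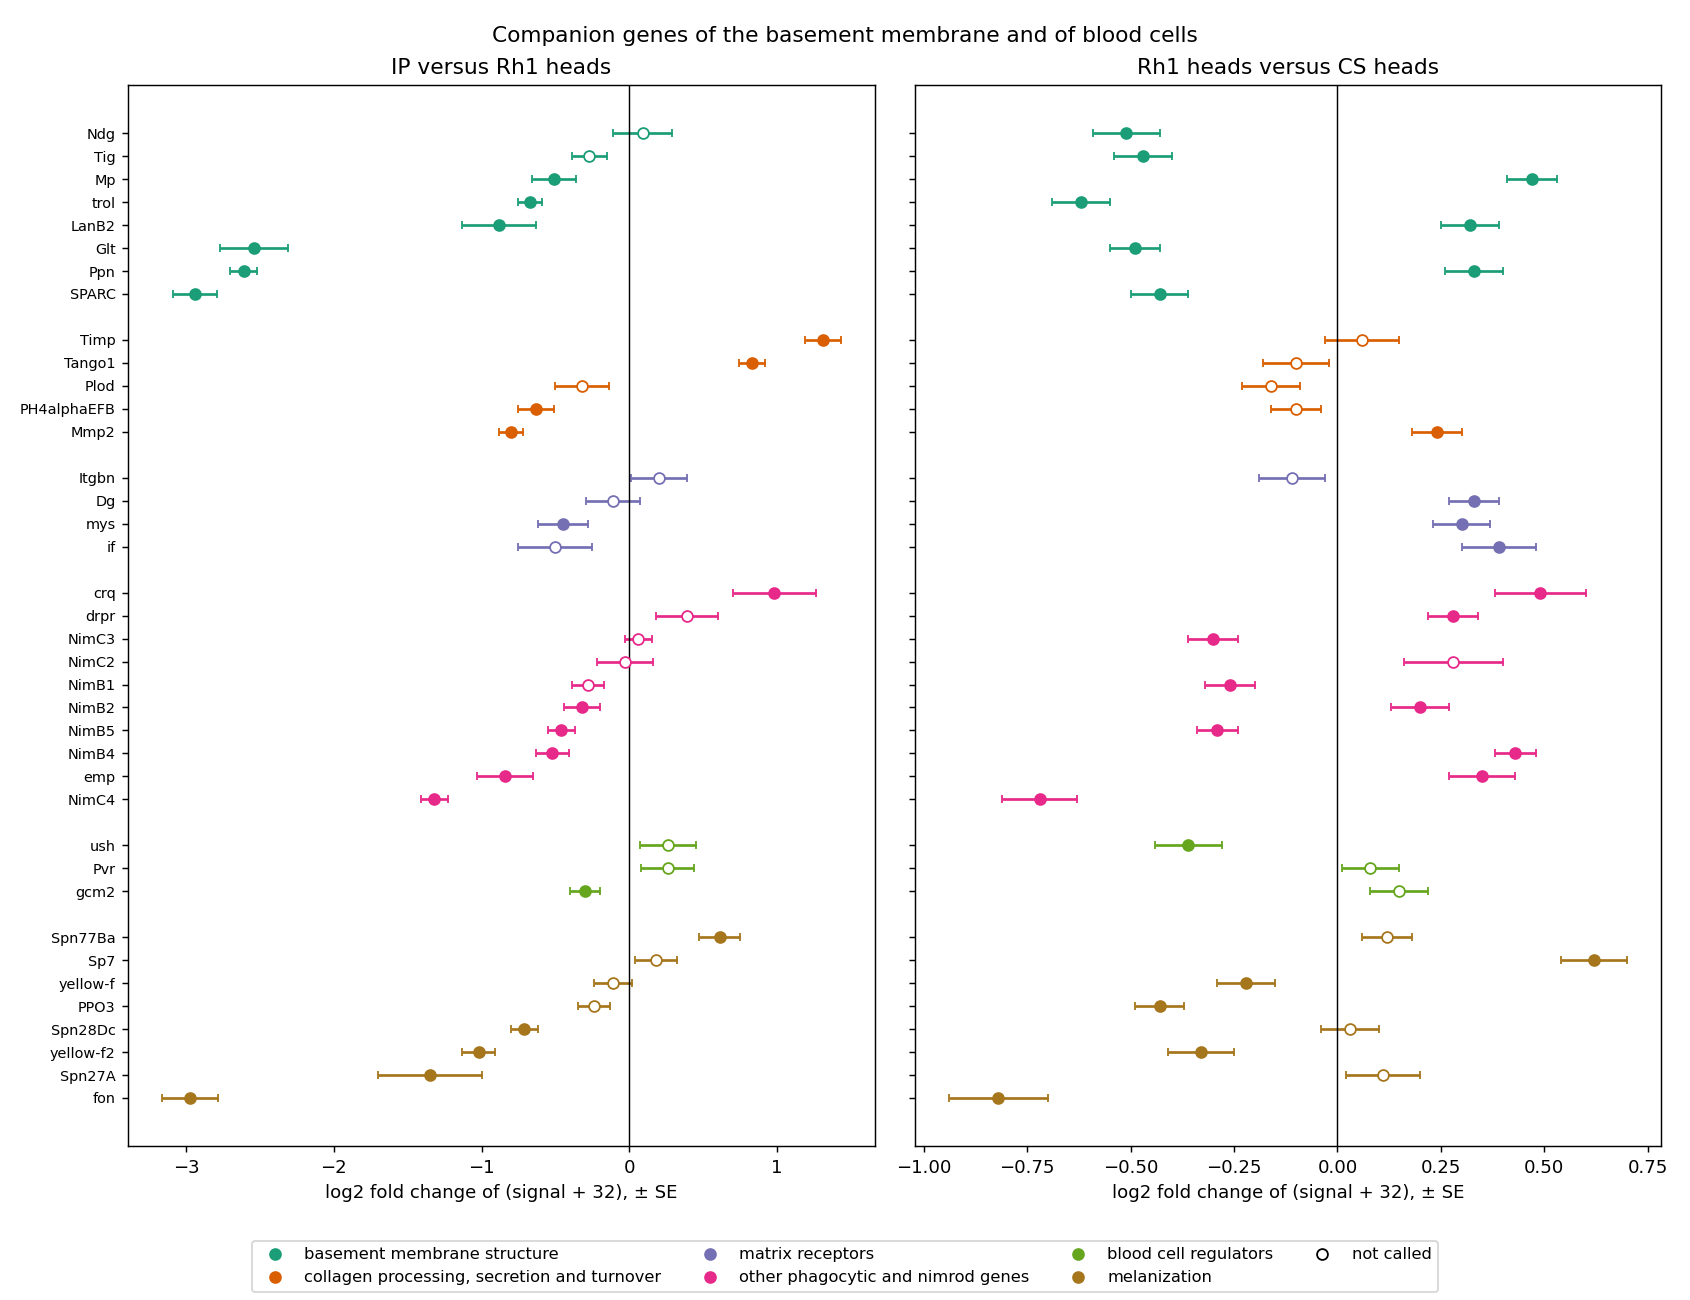
Log2 fold change of (signal + 32) with standard error for the other tested genes of the basement membrane and of blood cells. The IP against Rh1 heads is on the left. Rh1 heads against CS heads are on the right, where the axis covers a narrower range of fold changes. Filled points passed the limma threshold and open ones did not. On the left SPARC (-2.94), Ppn (-2.61), Glt (-2.54) and fon (-2.97) are lowest and Timp (1.31) is highest.

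Most fat body and muscle markers fell in the IP with the collagen genes. Glial markers split. Of the 8 outer photoreceptor markers 7 rose and 0 fell in the IP against Rh1 heads. Against CS heads 3 rose, 3 fell and 2 did not pass the test. In the IP against Rh1 heads 7 of 9 fat body markers fell, 1 rose and 1 did not pass the test, with a median log2 fold change of -2.23. Their summed signal was 14790 to 27210 in the IP, 96010 to 107400 in Rh1 heads and 112700 to 128800 in CS heads, and no marker was at 0 on any array. All 8 muscle markers fell, with a median of -2.48 and sums of 5469 to 7435 in the IP, 35940 to 39860 in Rh1 heads and 27910 to 44880 in CS heads. The 5 tested glial markers split into 2 that rose, 2 that fell and 1 not called. Beside these counts, 25.7% of all tested probe sets fell and 21.8% rose in the IP against Rh1 heads. The 8 outer photoreceptor markers summed to 33170 to 56130 in the IP, 18810 to 19470 in Rh1 heads and 52070 to 57460 in CS heads. The part of these tissues in the values of the 9 genes was not tested. In whole heads and in the IP alike, fewer cells of a type and less of a message per cell cannot be told apart.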

How the data were processed

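The deposited intensity values, made by the authors from targets prepared by the manufacturer's procedures, per the labels, are linear, with 1 value for each probe set on each array. The sources used here name no probe set algorithm, scaling or genome build. Deposited medians ran from 180.1 to 201.8. No total count exists for arrays, so their number limits precision.

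Means trimmed by 2% at each end were 309.3 to 371.1, over the 5% tolerance, so arrays were scaled to their mean. The 44 control probe sets were left out of tests. Of 13966 others, 12443 had 1 gene in the platform's table, 327 several and 1196 none. By gene ID 12394 matched the RefSeq table of Release 6, and no symbol changed. IP samples were numbered in accession order and pair nothing. Rh1 heads and CS heads share sample numbers, but deviations of same-numbered arrays correlated at -0.112 to 0.104 and none best with its own number, so they were not paired.

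Only arrays of the 2 groups compared entered each limma fit (version 3.58.1, R 4.3.3, lmFit and eBayes with trend, Benjamini-Hochberg over 9776 probe sets), tested on simulated data first. The filter threshold equals a signal of about 110. Differences between probe sets within arrays used exact permutation tests. Alternatives were pseudocounts, filters, scalings, 1 fit of all arrays, no trend, array weights, arrays left out, other probe set rules and a replicate block. Genes named are the 9, the 2 largest called folds of each list in a comparison and the genes most like each member. Others were chosen after their values were seen. These were Mmp2, PH4alphaEFB, PPO3 and lz in the IP against Rh1 heads, Mp and drpr in Rh1 heads against CS heads, and Glt in a plot. The 9 genes, the gene lists and the rules were chosen with earlier results of these data known. Promoter and probe sequences were not analysed here. Figures were drawn with Python 3.11.15 and matplotlib 3.10.9.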

Additional observations from a re-analysis of the deposited data

Results flagged for a closer look

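Within each group of 4 or 6 arrays, each of the 10 probe sets was examined for 1 array far from the others, which made 30 groups of values. Chance alone marks about 1 group in 20, and 3 were marked. In CS heads 2 vkg had a signal of 1102, with the next array at 933.8. In Rh1 heads 1 PPO1 had 398.9, with the next at 359.8. In CS heads 5 PPO2 by its probe set 141850_at had 542.2, with the next at 404.9. IP array 4, at 539.4 for vkg with the next at 270, was not marked in its group of 4.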

How the results depend on the processing

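Of 466 recomputed fold changes of the 7 tested probe sets, 453 kept their side of the threshold and, where called, their direction. A change of sign where neither fit was called counts among these. For PPO1 in the IP against Rh1 heads the values ran from -0.1 to 0.01. Scaling moved no median over all probe sets by more than 0.1 (log2), and with 4 other scalings each of the 7 probe sets kept its call in all 3 comparisons. Without a filter 7 of the 9 genes fell in the IP against Rh1 heads and 7 against CS heads, because srp, NimC1 and eater were then tested. With a gene's probe sets averaged, or with PPO2 by 142220_at, 0 genes rose in the IP against Rh1 heads and 0 against CS heads, and in Rh1 heads against CS heads 2 rose and 0 fell. The mean of its probe sets turned PPO2 to -0.23 in the IP against Rh1 heads (limma adjusted p = 0.137) and to 0.34 in Rh1 heads against CS heads (adjusted p = 0.00143). In Rh1 heads against CS heads, 1 fit of all arrays and the replicate block (numbers 1 to 4, without CS heads 5 and 6) each left 0 genes that rose, and leaving out single arrays gave 0 to 2 that rose and 1 to 2 that fell. The block called 4701 probe sets, against 4961 on the same arrays without it and 5291 on all arrays, and changed no other call of the 7.

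Col4a1 minus vkg lost its call with a pseudocount of 16 in the IP against Rh1 heads (-0.66, adjusted permutation p = 0.0571) and in Rh1 heads against CS heads (-0.34, adjusted p = 0.0514). The causes were not tested. Leaving out single arrays gave -0.79 to -0.46 in the IP against Rh1 heads, -0.39 to -0.27 in Rh1 heads against CS heads and -1.13 to -0.80 in the IP against CS heads. Without IP arrays 2 and 4, 2 arrays against 4 or 6 could not pass after adjustment: Col4a1 minus vkg was -0.35 (adjusted permutation p = 0.0667) against Rh1 heads and -0.69 (0.0643) against CS heads, and the difference of the PPO2 probe sets was 2.56 (0.0667) and 1.14 (0.0643). The count of all probe sets called in the IP against Rh1 heads was 4638, but 6965 with array weights. Detection calls were not used here, so low signals such as those of srp, NimC1 and eater may lie near background.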
